A study of Mus musculus with 8 samples.

Results

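The 36 genes described here encode proteins of DNA repair and of the DNA damage checkpoint. They were chosen by name from a table of 27534 genes, with earlier results of these data known, and all 36 had enough reads to be tested. RNA was sequenced in bulk from pancreatic islets of C57BL/6J mice that were kept in culture for 72 h. High glucose stands for medium with 20 mM glucose (4 libraries) and low glucose for medium with 7.5 mM glucose (4 libraries). Both groups shared the strain, the RPMI medium and the serum, and the sources used here give no age, sex or number of animals. The comparison asks which transcripts differ between islets after prolonged culture at the higher and the lower glucose concentration. Nothing says that libraries of a group came from separate animals, so p-values measure only the spread between these libraries.

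Homologous recombination repairs a broken chromosome by copying an intact sister chromatid, which a cell holds after it has replicated its DNA. The Fanconi pathway removes crosslinks that stall replication forks and hands the break to recombination, whereas end joining ligates broken ends and works throughout the cell cycle. The kinases Atm and Atr sense breaks and single-stranded DNA, pass the signal to Chek2 and Chek1, and slow the cell cycle, and p53 drives the slower transcriptional arm. Adult islet β cells are largely non-dividing, and glucose is a known mitogen for mouse β cells.

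In high glucose 16 of the 36 genes were higher, 1 was lower and 19 did not pass an adjusted p of 0.05 (edgeR quasi-likelihood test, adjusted over 15442 genes). The share higher was 44.4%, where 13.1% of all genes tested were higher, and the share lower was 2.78%, where 11.9% of all were lower. The genes that rose included 5 of 8 in homologous recombination, 5 of 6 in the Fanconi pathway and 4 of 8 in the checkpoint. In the MRN complex 0 of 3 passed, and among end joining and single-strand break repair genes 1 rose and 1 fell of 5. Bard1, Exo1 and Fanci fell below the level of the count filter in at least 1 low glucose library and entered the test through the high glucose libraries, and of the other 33 genes 13 rose. The median log2 fold change of the 36 genes was 0.30, against -0.01 over all genes tested. At least 2-fold increases were found in 11 of the 36 genes (30.6%), against 534 genes or 3.46% of all. The 11 include Bard1, Exo1 and Fanci, which entered the test through the high glucose libraries. In bulk islets, a change in the number of cells of a type and a change in RNA per cell cannot be told apart. Without high glucose replicate 1 the count of higher genes was 10, and without low glucose replicate 2 the count of lower genes was 3. The 10 genes that passed with any 1 of the 8 libraries left out were Brca1, Bard1, Rad51ap1, Exo1, Fanca, Fancd2, Brip1, Chek1, Clspn and Topbp1. With the replicate number as a block the counts were 19 higher and 4 lower, where 37.4% of all genes were called, 18.9% as higher and 18.5% as lower. The 4 libraries of each group did not overlap for 17 of the 36 genes (47.2%), with high glucose above in 16 and low glucose above in 1. Bard1, Exo1 and Fanci are among these 16 as well. Over all genes 27.3% did not overlap, 13.7% with high glucose above and 13.6% with low glucose above.

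**Figure D1:**
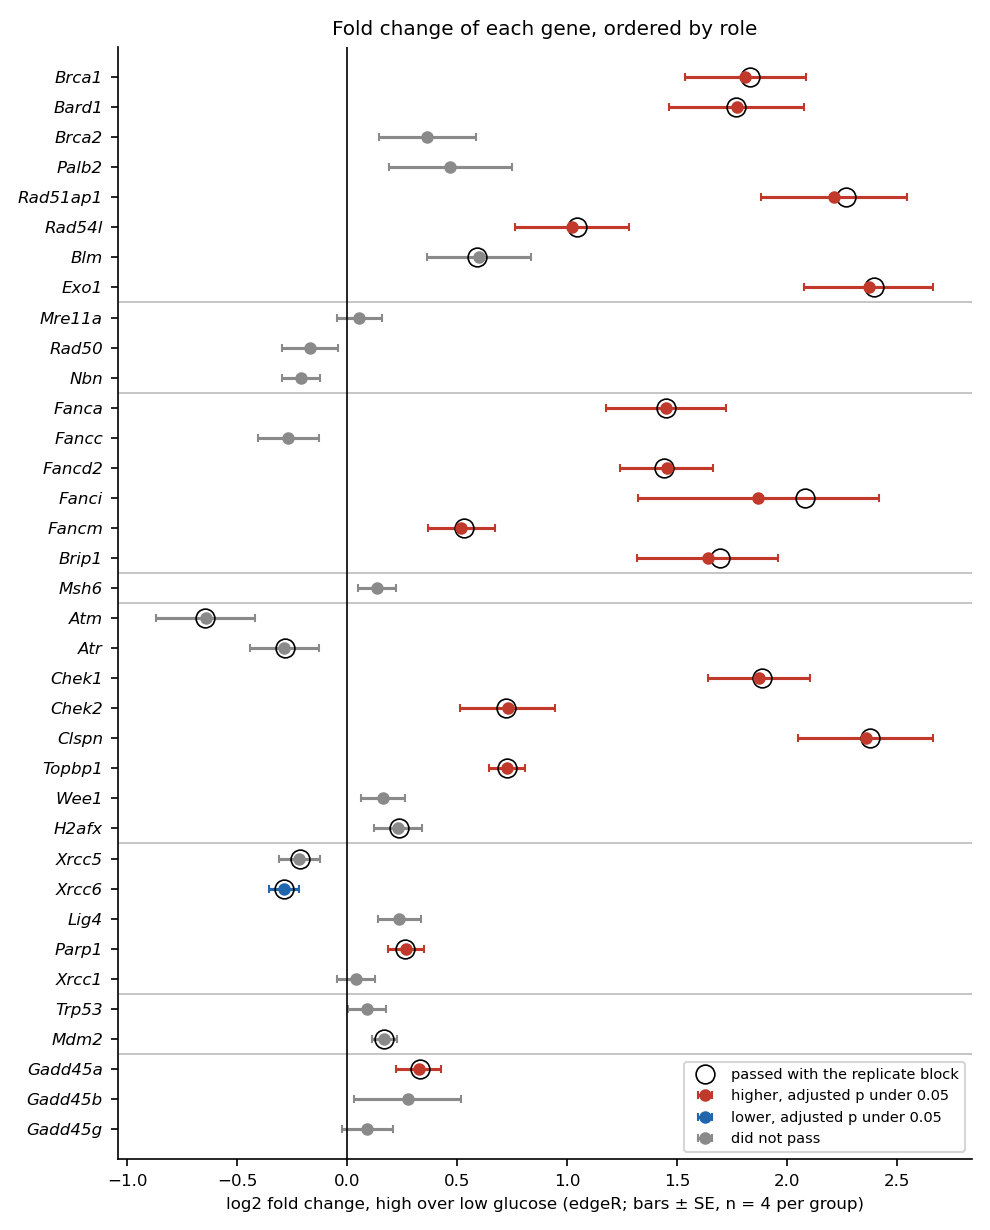
Log2 fold change of each of the 36 genes (high over low glucose) with its standard error, ordered by role and coloured by call, with open circles at the value from the replicate block where it passed. Genes of recombination, the Fanconi pathway and the checkpoint reach the highest values, up to 2.37 for Exo1, and Atm has the lowest at -0.64.

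Proliferation markers rose, as did 16 of the 36 genes. All 25 listed markers were higher in high glucose, with a median log2 fold change of 1.73 and a range of 0.54 to 2.47. Their summed level was 343 to 469 CPM (read counts scaled to a common library size by TMM) in the high glucose libraries and 152 to 197 CPM in the low glucose libraries. Mki67 rose 5.55-fold, Top2a 5.29-fold, the helicase subunit Mcm2 2.19-fold and the replication clamp Pcna 1.45-fold. Of the 16 repair and checkpoint genes that rose, 13 had a log2 fold change within the range of these markers, and Fancm, Gadd45a and Parp1 lay below it. The range is wide, and the share of all higher genes within it was not counted. The 13 include Bard1, Exo1 and Fanci, which entered the test through the high glucose libraries. The part of proliferation in the result was not tested.

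Promoter sequence was compared because several of these genes are textbook targets of E2F, the transcription factor family of the G1/S transition, and the choice of genes did not use sequence. RefSeq windows of build GRCm38.p6, from 250 bases before to 50 after a start site, matched 30 of the 36 genes and 11495 of the 15442 genes tested. The E2F letters TTTCCCGC, TTTCGCGC, TTTGCCGC and TTTGGCGC, searched on both strands, were in 7 of the 30 windows (23.3%), against 4.05% of all windows. Among genes that rose they were in 4 of 14 windows (28.6%), and among the other genes in 3 of 16 (18.8%). The 4 that rose were Bard1, Chek2, Clspn and Topbp1, and the remaining 3 were Brca2, Msh6 and Xrcc6. The Xrcc6 window lies 28534 bases from the start of the gene in the deposited table. A match describes letters in the window and not a bound site. Stretches around the match are given for 3 genes that rose and for Brca2, which did not pass, with the match in capitals.
Bard1 (chr1:71103144-71103211, minus strand): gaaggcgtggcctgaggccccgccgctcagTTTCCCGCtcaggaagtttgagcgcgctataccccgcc
Chek2 (chr5:110839801-110839868, plus strand): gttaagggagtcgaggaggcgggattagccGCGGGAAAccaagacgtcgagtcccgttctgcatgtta
Topbp1 (chr9:103305168-103305235, plus strand): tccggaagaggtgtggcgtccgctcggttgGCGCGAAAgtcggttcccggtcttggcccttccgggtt
Brca2 (chr5:150522423-150522490, plus strand): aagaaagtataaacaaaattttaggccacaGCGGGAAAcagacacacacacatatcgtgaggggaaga

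The letters CCAAT, those of the box read by the factor NF-Y, were in 22 of the 30 windows on either strand (73.3%), against 38.3% of all windows. Here too a match describes letters and not a bound site. The CCAAT letters were in 9 of the 14 windows of genes that rose (64.3%) and in 13 of the 16 others (81.3%). The 13 include Fancc, whose window lies 65533 bases from the start of the gene in the deposited table. The CHR letters TTTGAA and TTTAAA, an element of genes expressed late in the cell cycle, were in 3 of the 30 windows (10.0%), against 18.9% of all. Brca1 and Brip1, which rose and whose windows hold none of the E2F letters, are shown with their CCAAT letters (or ATTGG on the other strand) in capitals.
Brca1 (chr11:101552007-101552071, minus strand): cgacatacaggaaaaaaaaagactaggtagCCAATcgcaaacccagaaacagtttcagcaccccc
Brip1 (chr11:86201194-86201322, minus strand): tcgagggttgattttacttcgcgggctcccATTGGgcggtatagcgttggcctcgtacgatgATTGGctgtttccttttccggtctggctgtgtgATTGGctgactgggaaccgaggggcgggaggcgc

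Homologous recombination genes rose in 5 of 8 cases, and the median log2 fold change of the 8 was 1.40. Brca1, the ubiquitin ligase that promotes resection of broken ends, spans chr11:101488764-101551955. Its level was 7.27, 6.86, 5.28 and 9.58 CPM in high glucose replicates 1 to 4 and 2.01, 2.25, 1.14 and 2.88 CPM in low glucose replicates 1 to 4. Every high glucose library lay above every low glucose library, and the rise was 3.51-fold (log2 1.81 ± 0.28 SE, edgeR adjusted p = 0.000926). Bard1, its obligate partner (chr1:71027498-71103146), was at 2.02, 2.24, 2.17 and 3.44 CPM in high glucose and at 0.986, 0.428, 0.805 and 0.624 CPM in low glucose. Bard1 rose 3.41-fold (log2 1.77 ± 0.31 SE, edgeR adjusted p = 0.00198), so both subunits of this ligase rose, by log2 values that differed by less than either standard error.

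Exo1, the exonuclease that extends resected ends (chr1:175880581-175913489), had the largest log2 fold change of the 36 genes. It was at 3.61, 3.85, 2.73 and 3.48 CPM in high glucose and at 0.417, 0.857, 0.473 and 0.912 CPM in low glucose. The groups did not overlap, and the rise was 5.17-fold (log2 2.37 ± 0.29 SE, edgeR adjusted p = 0.000263). Rad51ap1, which stimulates strand pairing (chr6:126923050-126939587), was at 4.33, 3.95, 2.78 and 4.20 CPM in high glucose and at 1.18, 1.12, 0.473 and 0.480 CPM in low glucose. Its rise was 4.64-fold (log2 2.21 ± 0.33 SE, edgeR adjusted p = 0.000829), again with no overlap. Rad54l, a motor protein of strand invasion (chr4:116094264-116123690), was at 3.22, 2.91, 2.36 and 2.55 CPM in high glucose and at 1.52, 0.964, 1.04 and 1.87 CPM in low glucose. It rose 2.03-fold (edgeR adjusted p = 0.0154), and the adjusted p was 0.0506 without high glucose replicate 1.

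Brca2, a mediator of strand exchange, and Palb2, which links Brca2 to Brca1, did not pass. Brca2 (chr5:150522630-150570329) was at 7.12, 6.08, 6.32 and 7.92 CPM in high glucose and at 5.16, 3.16, 5.82 and 7.15 CPM in low glucose, so its groups overlapped. Its log2 fold change was 0.36 ± 0.22 SE (edgeR adjusted p = 0.27). Palb2 was at 1.32 to 1.68 CPM in high glucose and at 0.71 to 1.40 CPM in low glucose (edgeR adjusted p = 0.258). Blm, the helicase that dissolves recombination intermediates, was at 5.73, 3.17, 3.30 and 4.41 CPM in high glucose and at 3.30, 2.09, 2.98 and 2.54 CPM in low glucose. It did not pass (log2 0.60 ± 0.24 SE, edgeR adjusted p = 0.0934), but it was higher with the replicate block (edgeR adjusted p = 0.0312). The difference between Brca1 and Brca2 in fold change was not itself tested.

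The MRN complex, which binds broken ends and activates Atm, had 0 of 3 subunits past the threshold by edgeR, with and without the replicate block, and 0 by DESeq2 and limma-voom. Mre11a, its nuclease, was at 14.9 to 18.1 CPM in high glucose and at 13.5 to 16.9 CPM in low glucose (log2 0.06 ± 0.10 SE, edgeR adjusted p = 0.742). Rad50 was at 11.2 to 15.1 CPM in high glucose and at 12.2 to 16.7 CPM in low glucose (log2 -0.17 ± 0.13 SE, edgeR adjusted p = 0.374). Nbn, the subunit that recruits Atm, was at 22.8 to 25.8 CPM in high glucose and at 25.4 to 31.4 CPM in low glucose. Its log2 fold change of -0.21 ± 0.08 SE missed the threshold (edgeR adjusted p = 0.0995), and it was the 1 subunit of the 3 with an unadjusted p under 0.05. Scaled by library size alone, Nbn passed as lower (adjusted p = 0.0393).

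**Figure D2:**
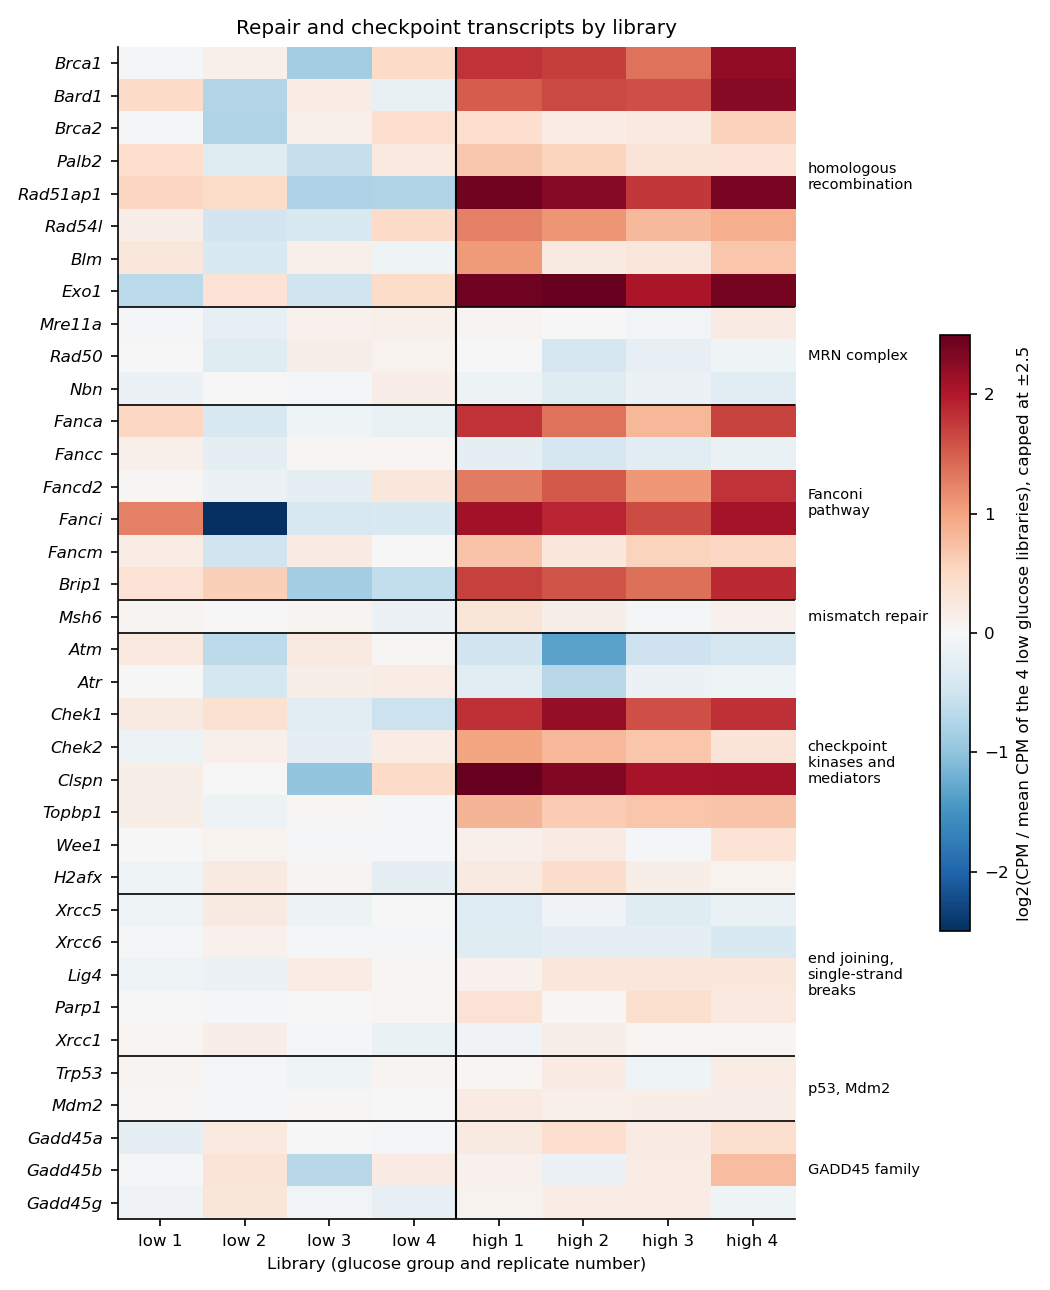
Level of each of the 36 genes (vertical axis, grouped by role) in each of the 8 libraries (horizontal axis), as the log2 ratio of its CPM to its mean CPM in the 4 low glucose libraries, with the colour scale capped at 2.5 in either direction. Exo1, Rad51ap1 and Clspn are darkest in the high glucose libraries, the MRN subunits and Xrcc1 stay near 0, and the darkest blue cell is Fanci in low glucose replicate 2, which rests on 1 read.

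Fanconi pathway genes rose in 5 of 6 cases, with a median log2 fold change of 1.45. Fancd2 and Fanci form the clamp that is ubiquitinated at a crosslink, Fanca and Fancc belong to the core ligase complex, Fancm is the DNA translocase that anchors the complex, and Brip1 is a helicase that binds Brca1. Fancd2 (chr6:113531682-113597017) was at 4.38, 5.15, 3.77 and 6.19 CPM in high glucose and at 1.82, 1.61, 1.51 and 2.16 CPM in low glucose. Its rise of 2.74-fold (log2 1.45 ± 0.21 SE, edgeR adjusted p = 0.000727) came with no overlap between groups. Fanci, the partner of Fancd2, was at 2.65, 2.34, 1.93 and 2.63 CPM in high glucose and at 1.48, 0.0536, 0.473 and 0.480 CPM in low glucose. The low glucose replicate 2 value rests on 1 read, and 3 reads are worth 0.114 to 0.161 CPM in these libraries. Fanci rose 3.65-fold (log2 1.87 ± 0.55 SE, edgeR adjusted p = 0.0298), with the largest standard error of the 36 genes. Its adjusted p was 0.0509 to 0.0822 when any of the 4 high glucose libraries, or low glucose replicate 3 or 4, was left out. With the replicate block it was 0.0039.

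Fanca (chr8:123268300-123318576) was at 5.68, 4.16, 2.88 and 5.22 CPM in high glucose and at 2.31, 1.23, 1.51 and 1.44 CPM in low glucose. Its rise was 2.73-fold (log2 1.45 ± 0.27 SE, edgeR adjusted p = 0.0032). Fancc, from the same complex, was at 4.57 to 5.46 CPM in high glucose and at 5.14 to 6.67 CPM in low glucose. It was the 1 Fanconi gene of the 6 with a negative log2 fold change (-0.27 ± 0.14 SE) and did not pass (edgeR adjusted p = 0.196). Brip1 (chr11:86058138-86201193) was at 3.37, 3.07, 2.69 and 3.76 CPM in high glucose and at 1.33, 1.55, 0.568 and 0.672 CPM in low glucose. It rose 3.12-fold (log2 1.64 ± 0.32 SE, edgeR adjusted p = 0.00386). Fancm was at 30.9, 22.6, 27.9 and 26.8 CPM in high glucose and at 21.5, 13.4, 21.9 and 18.7 CPM in low glucose. Its rise of 1.43-fold (log2 0.52 ± 0.15 SE, edgeR adjusted p = 0.0293) was the smallest of the 5. The adjusted p of Fancm was 0.0602 to 0.0941 on leaving out replicate 1, 3 or 4 of high glucose or replicate 4 of low glucose, and 0.102 when scaled by library size alone.

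Msh6, which recognises mismatches, was at 29.7 to 37.5 CPM in high glucose and at 27.4 to 31.8 CPM in low glucose. The groups overlapped, and the log2 fold change was 0.14 ± 0.09 SE (edgeR adjusted p = 0.294).

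**Figure D3:**
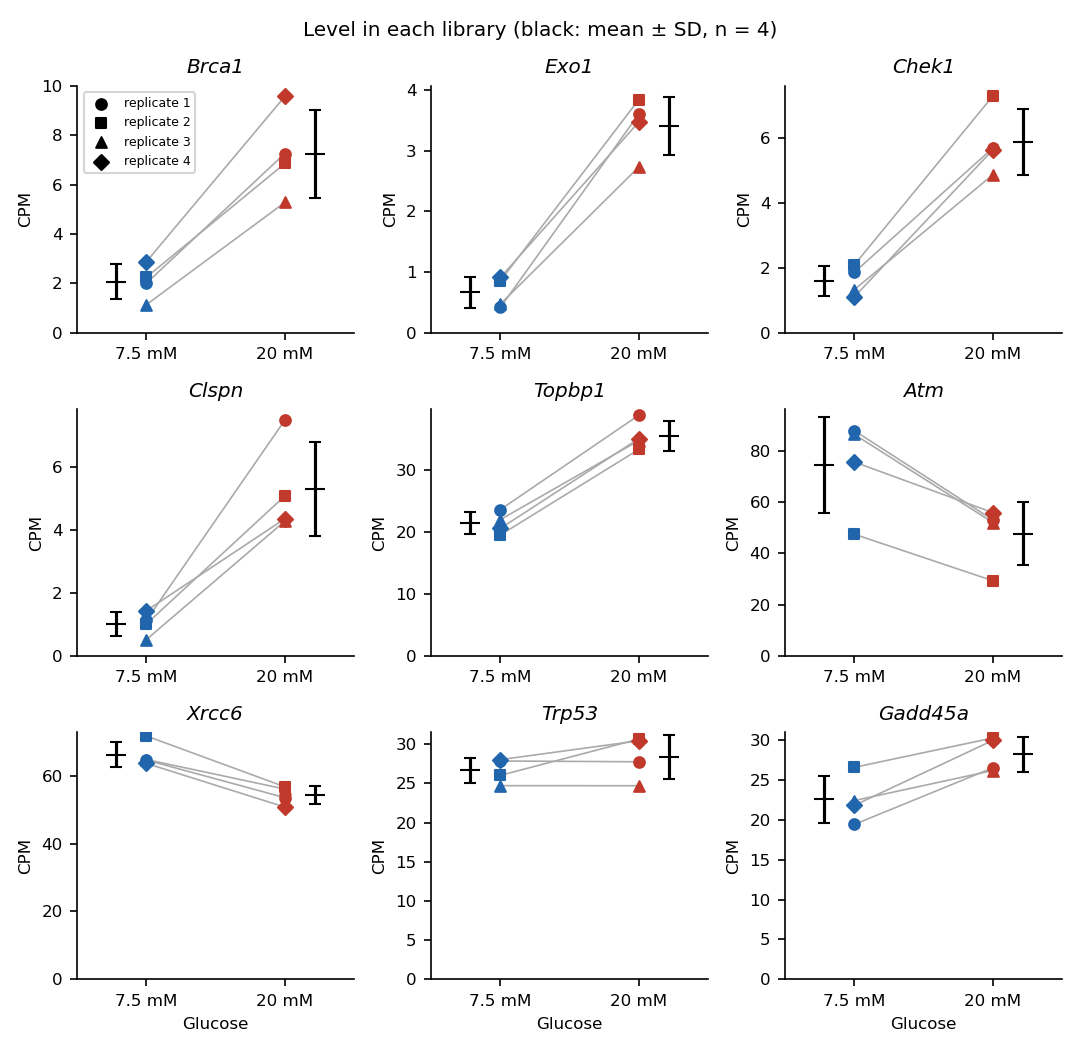
CPM of 9 of the 36 genes in each library at 7.5 and 20 mM glucose, with lines joining libraries of the same replicate number and black bars for the group mean and SD (n = 4). Brca1, Exo1, Chek1, Clspn and Topbp1 have no overlap between groups, whereas Atm has its lowest value in replicate 2 of each group, at 29.3 and 47.5 CPM.

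Checkpoint genes rose in 4 of 8 cases, the effector kinases Chek1 and Chek2 and the mediators Clspn and Topbp1. The apical kinases Atm and Atr, the kinase Wee1 and the histone H2afx did not pass without the block. Chek1, the kinase that restrains entry into mitosis and origin firing (chr9:36708482-36727065), was at 5.68, 7.28, 4.86 and 5.62 CPM in high glucose and at 1.86, 2.09, 1.33 and 1.10 CPM in low glucose. Its rise was 3.66-fold (log2 1.87 ± 0.23 SE, edgeR adjusted p = 0.00027), with no overlap. Clspn, the adaptor through which Atr activates Chek1 (chr4:126556935-126593903), was at 7.51, 5.09, 4.29 and 4.37 CPM in high glucose and at 1.14, 1.02, 0.521 and 1.44 CPM in low glucose. It rose 5.13-fold (log2 2.36 ± 0.31 SE, edgeR adjusted p = 0.000356), and its lowest high glucose library stood above its highest low glucose library. Topbp1, the activator of Atr (chr9:103305215-103350428), was at 38.8, 33.3, 34.7 and 35.0 CPM in high glucose and at 23.6, 19.5, 22.0 and 20.5 CPM in low glucose. The rise was 1.65-fold (log2 0.73 ± 0.08 SE), and its edgeR adjusted p of 0.000162 was the smallest of the 36 genes.

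Chek2, the effector kinase of Atm, was at 3.51, 3.17, 2.88 and 2.22 CPM in high glucose and at 1.63, 1.93, 1.51 and 2.02 CPM in low glucose. It rose 1.66-fold (log2 0.73 ± 0.22 SE, edgeR adjusted p = 0.0311). The adjusted p was 0.0619 to 0.0941 on leaving out replicate 1, 2 or 3 of high glucose or replicate 1 or 3 of low glucose, and 0.0593 without the count filter. It was 0.0632 without both libraries numbered 2.

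Atm (chr9:53439149-53536740) was at 53.1, 29.3, 52.0 and 55.9 CPM in high glucose and at 87.9, 47.5, 86.4 and 75.6 CPM in low glucose. Replicate 2 was the lowest library of each group, and within each same-number pair the high glucose library was the lower. The log2 fold change was -0.64 ± 0.22 SE, which did not pass without the block (edgeR adjusted p = 0.0605). With the replicate block Atm was lower (log2 -0.65 ± 0.06 SE, edgeR adjusted p = 1.42e-05), as it was without low glucose replicate 2 (adjusted p = 0.00711) and by DESeq2 (adjusted p = 0.0155). Without both libraries numbered 2 the adjusted p was 0.000167. Atr was at 14.3 to 21.5 CPM in high glucose and at 17.1 to 26.4 CPM in low glucose (log2 -0.29 ± 0.16 SE, edgeR adjusted p = 0.223). With the block Atr was lower (adjusted p = 0.00949), and without low glucose replicate 2 its adjusted p was 0.0363.

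Wee1, the kinase that holds Cdk1 inactive, was at 13.4 to 17.5 CPM in high glucose and at 13.4 to 14.6 CPM in low glucose (edgeR adjusted p = 0.27). H2afx, the histone variant phosphorylated around breaks, was at 25.8 to 32.7 CPM in high glucose and at 20.8 to 28.2 CPM in low glucose. It did not pass without the block (log2 0.23 ± 0.11 SE, edgeR adjusted p = 0.159). H2afx was higher with the block (adjusted p = 0.0227) and without low glucose replicate 2 (adjusted p = 0.0389). The measurement is of H2afx transcript and says nothing of its phosphorylation.

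Of the 5 end joining and single-strand break repair genes, 1 rose and 1 fell (20.0% each), against 13.1% and 11.9% of all genes tested. The log2 fold changes were -0.29 to 0.27. With the replicate block 1 rose and 2 fell, where 18.9% of all genes were higher and 18.5% lower. Xrcc6 and Xrcc5 encode the Ku heterodimer, which caps broken ends. Xrcc6 (chr15:81987835-82040085) was at 53.6, 56.8, 56.2 and 50.8 CPM in high glucose and at 64.7, 71.8, 64.9 and 63.7 CPM in low glucose. It was the 1 gene of the 36 that was lower, by 1.22-fold (log2 -0.29 ± 0.07 SE, edgeR adjusted p = 0.0109), with no overlap between groups, and it passed with any 1 library left out. Xrcc5 was at 41.5, 48.9, 42.6 and 46.4 CPM in high glucose and at 48.1, 60.7, 47.9 and 51.9 CPM in low glucose. Its log2 fold change of -0.22 ± 0.09 SE did not pass (edgeR adjusted p = 0.115), but Xrcc5 was lower with the block (adjusted p = 0.0101) and when scaled by library size alone (adjusted p = 0.0145). Lig4, the ligase of end joining, was at 16.1 to 18.3 CPM in high glucose and at 13.6 to 16.9 CPM in low glucose (log2 0.24 ± 0.10 SE, edgeR adjusted p = 0.107).

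Parp1, the sensor of nicks, was at 89.0, 72.0, 90.8 and 81.8 CPM in high glucose and at 69.4, 67.5, 69.1 and 71.2 CPM in low glucose. It rose 1.20-fold (log2 0.27 ± 0.08 SE, edgeR adjusted p = 0.0329), and its high glucose replicate 2 lay close to the low glucose libraries. The adjusted p was 0.0637 to 0.105 on leaving out replicate 1, 3 or 4 of high glucose or replicate 1, 3 or 4 of low glucose, and 0.172 when scaled by library size alone. It was 0.0571 without the count filter. Xrcc1, the scaffold that Parp1 recruits, was at 29.9 to 35.6 CPM in high glucose and at 28.4 to 35.7 CPM in low glucose (log2 0.04 ± 0.09 SE, edgeR adjusted p = 0.785).

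Trp53, which encodes p53, was at 24.7 to 30.7 CPM in high glucose and at 24.7 to 28.0 CPM in low glucose (log2 0.09 ± 0.09 SE, edgeR adjusted p = 0.495). Mdm2, the ubiquitin ligase that degrades p53 and is itself a p53 target, was at 88.5, 83.4, 85.2 and 86.3 CPM in high glucose and at 77.5, 74.2, 78.2 and 75.8 CPM in low glucose. All 4 high glucose libraries lay above all 4 low glucose libraries, but the log2 fold change of 0.17 ± 0.06 SE did not pass without the block (edgeR adjusted p = 0.057). Mdm2 was higher with the block (adjusted p = 0.0252), by DESeq2 (adjusted p = 0.0352) and without low glucose replicate 2 (adjusted p = 0.0483). The protein and activity of p53 were not measured.

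The GADD45 genes encode small stress-induced proteins that bind cell cycle and signalling kinases. Gadd45a, the p53-responsive member, was at 26.6, 30.3, 26.2 and 30.0 CPM in high glucose and at 19.4, 26.6, 22.4 and 21.8 CPM in low glucose. It rose 1.25-fold (log2 0.33 ± 0.10 SE, edgeR adjusted p = 0.041), although low glucose replicate 2 reached into the high glucose range. The adjusted p was 0.0548 to 0.114 without any of the 4 high glucose libraries or without low glucose replicate 1, 3 or 4, and 0.0582 when scaled by library size alone. It was 0.0564 without the count filter. Gadd45b was at 7.48 to 14.2 CPM in high glucose and at 5.11 to 10.3 CPM in low glucose (edgeR adjusted p = 0.452). Gadd45g was at 29.3 to 36.2 CPM in high glucose and at 27.6 to 39.2 CPM in low glucose (edgeR adjusted p = 0.612). The groups of both genes overlapped.

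A list of 30 other p53 target genes held 2 that rose (6.67%) and 3 that fell (10.0%) by edgeR without the block. These shares were no more than the 13.1% and 11.9% of all genes tested. The median log2 fold change of the list was 0.18, against -0.01 over all genes tested. Aen, an apoptotic nuclease, rose 1.28-fold (34.6 ± 2.52 against 27.0 ± 1.91 CPM, SD, n = 4, edgeR adjusted p = 0.00862). Pidd1, a scaffold of caspase activation, rose 1.82-fold (edgeR adjusted p = 0.0206, up to 0.0623 on leaving out replicate 2 of high glucose or replicate 3 of low glucose). Btg2, an antiproliferative gene, fell 2.36-fold, from 368 ± 42.6 CPM in low glucose to 156 ± 24.4 CPM in high glucose (SD, n = 4, edgeR adjusted p = 6.51e-05). Rrm2b, a ribonucleotide reductase subunit, fell 1.44-fold (edgeR adjusted p = 0.000813). Mdm4, a second inhibitor of p53, fell 1.36-fold (edgeR adjusted p = 0.0305). The adjusted p of Mdm4 reached 0.0892, and it missed the threshold on leaving out replicate 1, 2 or 3 of high glucose or replicate 1, 3 or 4 of low glucose. With the replicate block 10 of the 30 targets rose, a larger share than the 18.9% of all genes tested. With it 5 of the 30 fell, where 18.5% of all genes were lower. The count of higher targets was 1 without low glucose replicate 3 and 4 without low glucose replicate 4, and the count of lower targets was 2 on leaving out replicate 1 or 3 of high glucose or replicate 1, 3 or 4 of low glucose. Cdkn1a, which encodes the cell cycle inhibitor p21 and was singled out after its values were seen, was at 71.9, 64.6, 62.1 and 102 CPM in high glucose. In low glucose it was at 51.0, 48.5, 41.2 and 69.4 CPM. It did not pass without the block (log2 0.52 ± 0.18 SE, edgeR adjusted p = 0.0653) and was higher with it (adjusted p = 2.71e-05).

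**Figure D4:**
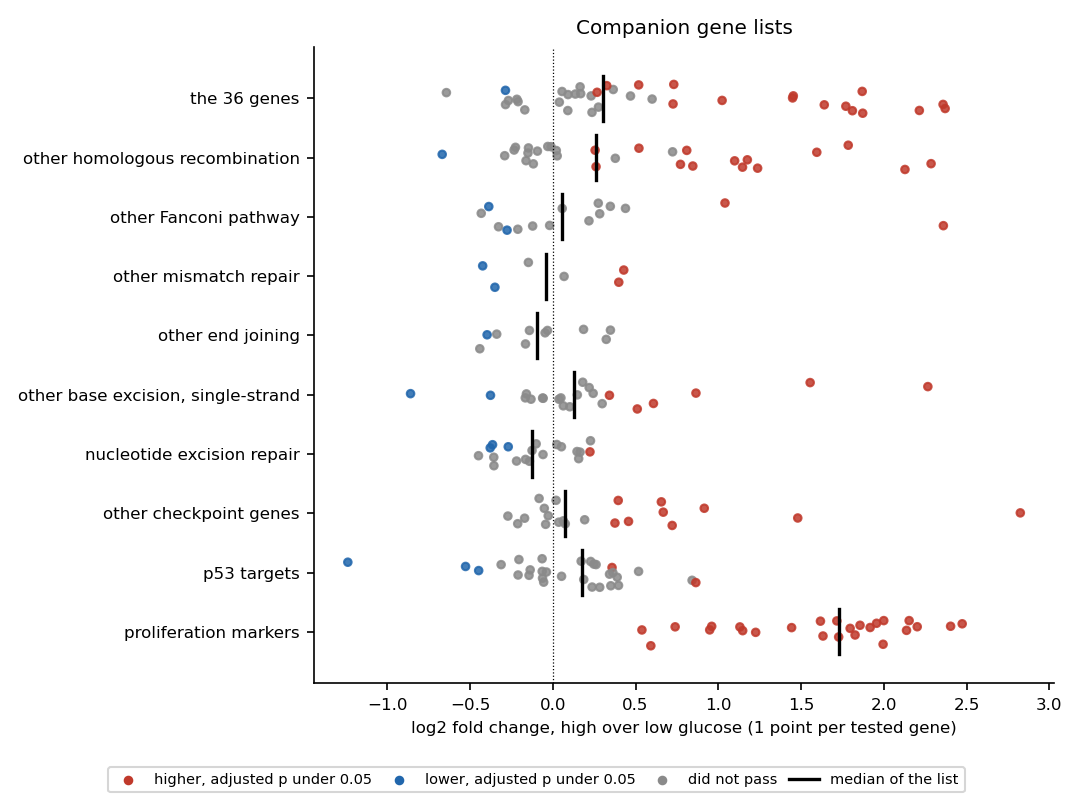
Log2 fold change of every tested gene in the 36-gene set, the 7 lists of other repair and checkpoint genes, the p53 target list and the proliferation markers, with calls marked and the list median as a bar. The proliferation markers have a median of 1.73 with all 25 higher, the 36 genes a median of 0.30, and nucleotide excision repair a median of -0.13.

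Beyond the 36 genes, 122 other repair and checkpoint genes were tested in 7 lists. Of these 34 rose (27.9%, against 13.1% of all genes tested), 11 fell (9.02%, against 11.9%) and 77 did not pass by edgeR, with a median log2 fold change of 0.05. With the replicate block 42 rose and 16 fell, and the count of genes that fell was 7 without high glucose replicate 3. Other recombination genes held 14 that rose and 1 that fell of 29. Rad18, a ubiquitin ligase of stalled forks, rose 2.36-fold, the fork factor Tonsl rose 1.75-fold, and Fignl1, a recombination factor, rose 3.45-fold. Abraxas1, a scaffold of a Brca1 complex, fell 1.59-fold (edgeR adjusted p = 0.0308), with a highest adjusted p of 0.0783 on leaving out replicate 3 or 4 of high glucose or replicate 2 or 3 of low glucose.

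Other checkpoint genes rose in 9 of 21 cases and fell in 0 by edgeR, with 0 that fell at an unadjusted p under 0.05, by DESeq2 or by limma-voom. The phosphatases Cdc25a and Cdc25c, which checkpoint kinases restrain, rose 1.65-fold and 7.09-fold, and 32.1% of the exon length of Cdc25c overlaps Gm3550 on the opposite strand. Timeless, a fork protection protein, rose 2.79-fold, and Pkmyt1, an inhibitory kinase of Cdk1, rose 1.59-fold. Of 15 other Fanconi genes 2 rose and 2 fell without the block (13.3% in each direction), near the 13.1% and 11.9% of all genes tested. Fancb of the core complex rose 5.13-fold (edgeR adjusted p = 0.000458). Ube2t, the conjugating enzyme for Fancd2, rose 2.06-fold (edgeR adjusted p = 0.0449). Fance fell 1.31-fold (edgeR adjusted p = 0.0235), and Faap100 fell 1.21-fold (edgeR adjusted p = 0.045). Ube2t missed the threshold on leaving out replicate 1, 2 or 4 of high glucose or replicate 1, 2 or 3 of low glucose (up to 0.129). Fance missed it on leaving out replicate 3 or 4 of high glucose or replicate 4 of low glucose (up to 0.0712), and Faap100 missed it with any 1 library left out (up to 0.112). With the block 5 of these 15 Fanconi genes rose and 4 fell, both larger shares than the 18.9% and 18.5% of all genes tested.

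Base excision and single-strand break repair genes outside the 36 held 6 that rose (27.3%) and 2 that fell (9.09%) of 22. Of all genes tested 13.1% were higher and 11.9% lower. The glycosylase Neil3 rose 4.81-fold, the uracil glycosylase Ung 1.82-fold, the flap nuclease Fen1 2.94-fold and the replicative ligase Lig1 1.52-fold. The related glycosylases Neil2 and Neil1 fell 1.81-fold and 1.30-fold, and Neil1 had an adjusted p of 0.0597 without low glucose replicate 1. Of the Fen1 exons, 78.8% of the length overlaps Gm10143 on the opposite strand. Mismatch repair held 2 of 6 in each direction (33.3%), with Msh3 up 1.32-fold, Pms2 up 1.35-fold and Mlh3 down 1.34-fold.

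Nucleotide excision repair, which removes bulky lesions, held 1 that rose (5.26%) and 3 that fell (15.8%) of 19. The shares over all genes tested were 13.1% and 11.9%. The median log2 fold change of the list was -0.13. Xab2 fell 1.30-fold, the incision nuclease subunit Ercc4 1.29-fold and the damage sensor Xpc 1.21-fold, whereas Rad23b, which binds Xpc, rose 1.17-fold. Xpc had an edgeR adjusted p of 0.0492 and missed the threshold on leaving out replicate 1, 2 or 3 of high glucose or replicate 1, 3 or 4 of low glucose (up to 0.141). Rad23b had an edgeR adjusted p of 0.0236 and missed it without any of the 4 high glucose libraries or without low glucose replicate 1 or 3 (up to 0.0761). With the block 2 of these 19 genes rose and 6 fell, where 18.9% of all genes were higher and 18.5% lower. Other end joining genes held 0 that rose and 1 that fell (10.0%) of 10, namely Paxip1 (1.32-fold, edgeR adjusted p = 0.0113), and 2 rose at an unadjusted p under 0.05. By DESeq2 and limma-voom 0 rose as well, and with the block 2 rose and 1 fell.

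The genes that rose were mostly those at low level. On the authors' FPKM scale, which divides by gene length, the mean level over the 8 libraries had a median of 0.455 FPKM over the 16 genes that rose (range 0.239 to 14.2). Over the other 20 genes the median was 5.55 FPKM (range 0.169 to 27.5). Of the 17 genes under 1 FPKM, 12 rose, and of the 19 at or above 1 FPKM, 4 rose (Fancm, Topbp1, Parp1 and Gadd45a). Over all genes tested the order was the other way, with 9.31% of 3749 genes under 1 FPKM higher and 14.3% of 11693 genes at or above it. Bard1, Exo1 and Fanci, which entered the test through the high glucose libraries, are among the 12 genes under 1 FPKM that rose. Entry in this way can favour a call of higher, and how many of all genes that entered so were called higher was not counted. Brca1 went from 0.237 FPKM in low glucose to 0.84 FPKM in high glucose, and Gadd45g, at 27.5 FPKM, was the most abundant of the 36 per length.

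**Figure D5:**
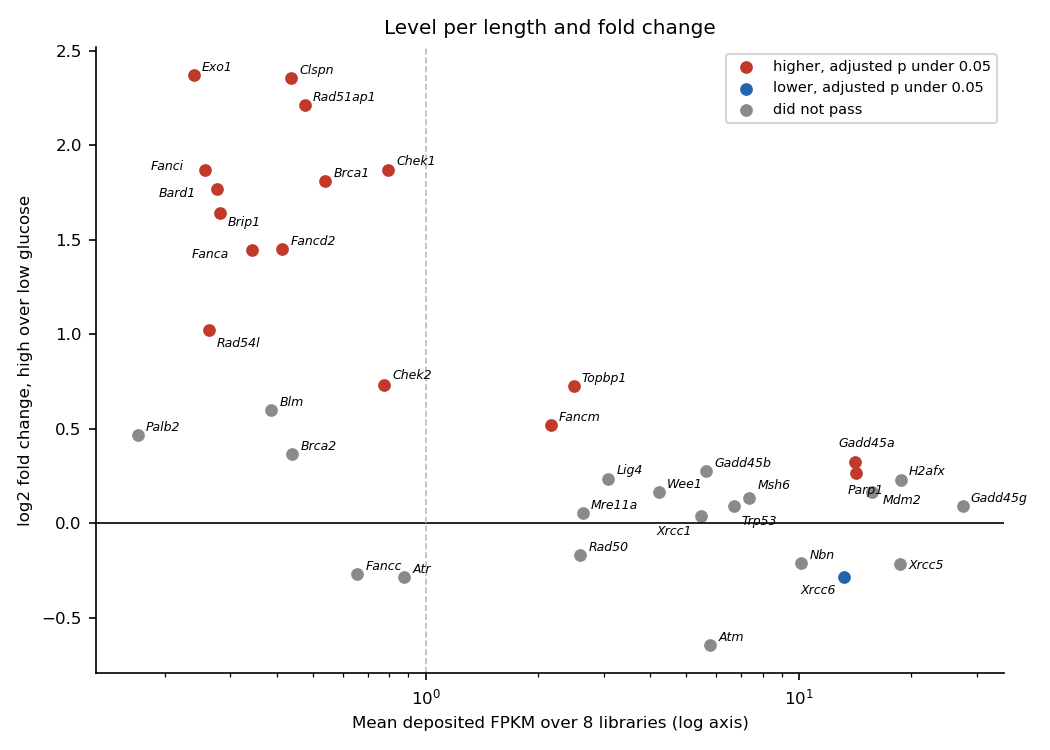
Log2 fold change (high over low glucose) of the 36 genes against their mean level over 8 libraries in the authors' FPKM, on a log axis, with genes that passed marked. Of the 17 genes under 1 FPKM 12 rose, and of the 19 at or above it 4 rose. The 12 include Bard1, Exo1 and Fanci, which entered the test through the high glucose libraries.

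Total counts were 19543045 to 24949515 per library, and every pair of libraries differed beyond sampling noise. The labelled tissue carried its defining markers, with the β-cell list (2 of 10 higher, 4 lower) summing to 207974 to 274204 CPM in high glucose and 187418 to 267799 CPM in low glucose. Markers of other cell types differed between libraries, and some lists leaned to 1 group. The log2 fold change was above 0 for all 12 acinar markers tested (median 0.71) and all 9 fibroblast and stellate markers (median 0.94). It was below 0 for 8 of 9 macrophage markers (median -0.09, 0 passed by edgeR, 2 lower with the block). Over all genes tested it was above 0 for 7496 and below 0 for 7946. The acinar list (0 of 12 tested passed by edgeR, DESeq2 or limma-voom or at an unadjusted p under 0.05, 8 higher with the block) summed to 3858 to 19810 CPM in high glucose and 1354 to 11485 CPM in low glucose. The fibroblast and stellate list (0 of 9 passed by edgeR, DESeq2 or limma-voom, 1 higher at an unadjusted p under 0.05) summed to 155 to 1136 CPM and 121 to 317 CPM. Its highest sum was in high glucose replicate 1. Without that library 10 of the 36 genes were higher, and without high glucose replicate 2, 3 or 4 the counts were 13, 11 and 12. Over all 8 libraries, left out 1 at a time, the count was 10 to 18. The ductal list (1 of 7 higher and 1 lower, 3 higher and 1 lower with the block) summed to 580 to 602 CPM in high glucose and 446 to 562 CPM in low glucose, with no overlap between groups. The delta-cell list (0 of 3 passed by edgeR or DESeq2, 1 higher by limma-voom, at an unadjusted p under 0.05 and with the block) summed to 2493 to 4171 CPM and 1571 to 3075 CPM. The T, B and NK cell list (1 of 2 tested fell) summed to 4.00 to 9.38 CPM and 9.17 to 12.4 CPM. No listed marker of these cell types that is in the table was at 0 in all libraries, and their part in the results was not tested.

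Of the 36 genes, 10 have exons that overlap another gene on the opposite strand, and no source used here gives the strand setting of the counting. Reads of these genes and of their partners may therefore not be told apart. The 10 are Atr, Fanca, Fancc, Fanci, Fancm, Gadd45a, Mre11a, Msh6, Rad54l and Xrcc6, of which 5 rose and 1 fell. The overlap covers 16.0% of the exon length of Fanci (with Polg), 19.1% of Gadd45a, 15.4% of Rad54l (with Lrrc41) and 7.69% of Xrcc6 (with Desi1). The remaining 11 genes that rose have no such overlap.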

How the data were processed

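The library kit was NEBNext Ultra RNA, per the labels' protocols. STAR 2.5, HTSeq 2, DESeq2 and mm10 (GRCm38) are named in the submitters' processing notes; no source used here gives the strand setting or annotation release. Per the file headers, the authors deposited a whole-number read count per gene and library, and their FPKM per gene, which was used here only to compare levels between genes. Coordinates are those of the deposited table.

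The test was the quasi-likelihood test of edgeR 4.0.16 (R 4.3.3). TMM scaling, filterByExpr (minimum count 10, minimum total 15), group as the only term over all 8 libraries and Benjamini-Hochberg adjustment over 15442 genes were used, with a threshold of 0.05. CPM values use the TMM-adjusted library size, fold changes are high over low glucose, and standard errors come from the log2 fold change and its F statistic (their ratio after a square root of F). The steps were also run on simulated counts with known fold changes. These were drawn without any pairing of libraries, so that run does not bear on the pairing. Total counts of 19543045 to 24949515 make 3 counts worth 0.114 to 0.161 CPM, which covers counting error only. The smallest chi-square per gene between libraries was 9.64.

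Replicate numbers come from the labels, which do not say what a number stands for. Deviations from the group means correlated by 0.101, 0.449, 0.404 and 0.475 in same-number pairs 1 to 4. Pairs of different number correlated by -0.367 to 0.207. The highest of these, high glucose replicate 4 with low glucose replicate 1, lay above same-number pair 1, so that pair is not set apart. The numbers were taken to pair the libraries in the replicate block, and the main test does not use them. Alternatives were a replicate block, RLE scaling, library size alone, no count filter, DESeq2 1.42.0, limma-voom 3.58.1, each library left out, and, chosen after seeing the data, both libraries numbered 2 left out.

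The 36 genes and the lists were chosen with earlier results of these data known. All 36 are named. From each other list up to 4 passing genes with the smallest adjusted p are named, plus at most 2 passing genes of the opposite direction, except 2 genes that are not reported here. Mki67, Top2a, Pcna and Mcm2 are named whatever their result. Promoter windows are from RefSeq (GRCm38.p6), taking the window nearest the start of the gene in the deposited table. The window of Rad50, Fancd2, Wee1, Nbn, Exo1 and H2afx was not used here. The authors' own normalized signal and fold changes were not used.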

Additional observations from a re-analysis of the deposited data

Results flagged for a closer look

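In 4 of 72 groups of 4 libraries checked over the 36 genes, a library stood apart from the other 3 by Dixon's criterion, where chance gives about 1 in 20. Bard1 was at 3.44 CPM in high glucose replicate 4, above the 2.02 to 2.24 CPM of the other high glucose libraries. Atm was at 29.3 CPM in high glucose replicate 2, below the 52.0 to 55.9 CPM of the others. Xrcc6 was at 71.8 CPM in low glucose replicate 2, above the 63.7 to 64.9 CPM of the others. Lig4 was at 16.1 CPM in high glucose replicate 1, below the 18.0 to 18.3 CPM of the others.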

How the results depend on the processing

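Among the 36 genes, the count higher (16) was 13 to 19 under the other scalings, filters and tools, and 10 to 18 with 1 library left out. The count lower (1) was 2 by DESeq2, 3 with library size alone, 2 without the count filter, 4 with the replicate block, and 3 without both libraries numbered 2, and 1 to 3 with 1 library left out. Over all genes the count lower (1831) was 2862 with the replicate block, and with 1 library left out 1617 to 2656 were higher and 1382 to 2476 lower. Other repair and checkpoint genes that fell (11) numbered 18 with library size alone, and with 1 library left out 24 to 35 rose and 7 to 14 fell. Of the p53 targets, 4 rose by DESeq2, 1 with library size alone and 10 with the block, 5 fell with library size alone and 5 with the block, and with 1 library left out 1 to 4 rose and 2 to 3 fell. Mre11a, not called, changed sign with library size alone (log2 -0.028), without high glucose replicate 4 (-0.0018) and without low glucose replicate 2 (-0.0042), and reached 0.097 with 1 library left out. Xrcc1, not called, did so with library size alone (-0.040), without high glucose replicate 2 (-0.0012) and without low glucose replicate 4 (-0.014), and reached 0.096 with 1 library left out. The causes were not tested. Library size alone moved the median log2 fold change of all genes by -0.08 and the share of calls that were higher from 52.5% to 37.8%. The replicate block changed the call of Blm, Atm, Atr, H2afx, Xrcc5 and Mdm2 and of no other gene of the 36. Fanci, with 1 read in low glucose replicate 2, had the largest standard error of the 36 genes.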
